A study of Mus musculus with 6 samples.

Results

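The integrin subunit genes and the Cdh-numbered cadherin genes were described in sorted corneal keratocytes of mice with and without Ptch1 ablation. Members were taken by a rule on gene names: Itga followed by a number or letter, and Itgb or Cdh followed by a number. The endothelial gene Cdh5 was left out. The rule was set with earlier results of these data known. The names gave 43 of the 17606 genes in the deposited table, of which 25 encode integrin subunits (18 alpha and 7 beta) and 18 encode cadherins. The name does not make every one of these a classical cadherin. Of the 18, 4 are type I and 9 type II classical cadherins, whereas the other 5 are not: Cdh13, whose product is held in the membrane by a lipid anchor, and Cdh16, Cdh17, Cdh23 and Cdh26.

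The series held 6 RNA-seq libraries of keratocytes, the resident fibroblasts of the corneal stroma, sorted by flow cytometry from mouse corneas. The 3 Ptch1-ablated libraries came from Prrx1-creERT;Ptch1 mice (Prrx1-CreERT;Ptch1 f/f), in which a tamoxifen-inducible Cre driven by Prrx1 removes floxed Ptch1, and the 3 control libraries from age-matched control mice. Mice of both groups were 10 weeks old, were given 3 doses of tamoxifen and were followed for 1 month. The lines had been backcrossed to C57BL/6. The alleles of the control mice, and whether they carried the Cre, are not given in the sources used here, and neither are the markers of the sort or the number of corneas behind a library. Prrx1 also drives recombination in mesenchymal cells other than keratocytes, so the mice are not a model of keratocyte loss of Ptch1 alone. The 3 libraries of a group are described as biological replicates. Library totals were 20258439 to 24788063 expected counts. A floor of 3 counts therefore corresponded to 0.121 to 0.158 CPM (counts per 1000000 of the library total after TMM scaling), and this floor covers counting error only.

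Ptch1 itself, the Hedgehog receptor that the allele targets, had 172, 104 and 369 counts in the control libraries and 4348, 5194 and 6230 in the libraries labelled Ptch1-ablated. These are totals over the whole gene, so they do not show whether the floxed exons were removed and do not check the labels. Gli1, a transcription factor and target gene of the pathway, had 1, 20 and 36 counts in the control libraries and 3022, 3042 and 3098 in the libraries labelled Ptch1-ablated.

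Integrins are receptors made of an alpha and a beta chain that span the membrane. The alpha chain largely sets which matrix protein or cell-surface ligand is bound, and most but not all beta chains connect to talin, kindlin and the actin cytoskeleton. Classical cadherins bind cadherins on neighbouring cells through calcium-dependent extracellular repeats and hold beta-catenin, alpha-catenin and p120-catenin at their cytoplasmic tails. In the cornea, keratocytes lie between collagen lamellae and touch one another through long processes.

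The comparison asked which of these adhesion receptor genes differed in RNA level between Ptch1-ablated and control keratocytes. Of the 43 members, 37 had enough counts to be tested, and all 37 had at least 10 counts in at least 3 libraries. None of the 37 reached 10 counts in the libraries of 1 group only. With edgeR's quasi-likelihood test and Benjamini-Hochberg adjustment over all 13888 genes tested, 11 members passed an adjusted p of 0.05, which is 29.7% of the members tested beside 8.48% of all genes tested. Among them 7 were higher in ablated keratocytes (background 4.68%): Itga8, Cdh6, Cdh13, Itgb8, Cdh11, Itgb4 and Itgam. The 4 lower members (background 3.8%) were Cdh9, Itga4, Itga11 and Itgb5. With a fold change of at least 2 as well, 7 members remained (background 5.49%), 4 of them higher and 3 lower. The median log2 fold change of the 37 tested members was 0.43, against 0.0046 for all genes tested. Both directions occurred within each family: among the 24 integrins tested, 4 were higher and 3 lower, and among the 13 cadherins tested, 3 were higher and 1 was lower. The count of higher members fell to 4 when control replicate 2, ablated replicate 2 or ablated replicate 3 was left out. Over all genes, 778, 866 and 795 passed in these fits, in the same order, instead of 1178. In these bulk libraries, fewer cells of a type and less RNA per cell cannot be told apart.

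**Figure D1:**
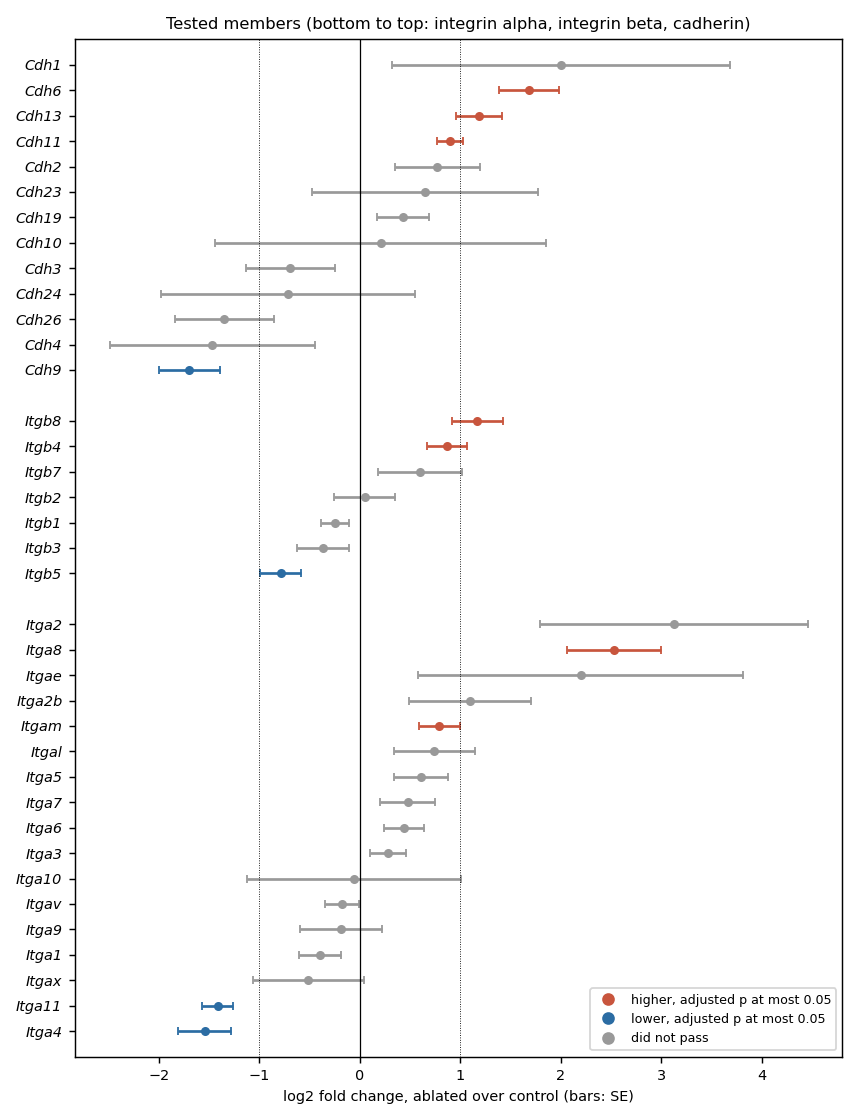
Log2 fold change of the 37 tested members, ablated over control, with bars of 1 standard error from edgeR's quasi-likelihood fit and colours for members that passed an adjusted p of 0.05. The 7 higher members lie between 0.79 and 2.53 and the 4 lower members between -0.79 and -1.70, whereas members of low count such as Itga2, Itgae and Cdh1 have long bars.

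The collagen-binding alpha chains were led by Itga11 (Entrez 319480), whose product pairs with the beta chain of Itgb1 to bind fibrillar collagen. Itga11 had 469, 601 and 693 CPM in the control libraries and 226, 211 and 225 CPM in the ablated libraries. Every ablated library lay below every control library. The mean fell from 588 ± 112 to 220.5 ± 8.40 CPM (SD, n = 3 each), or 2.67-fold (log2 fold change -1.41 ± 0.15 SE, edgeR adjusted p = 8.93e-05). Itga1, a collagen receptor chain of broad distribution, had 95.8, 62.3 and 77.7 CPM in controls and 58.3, 70.4 and 50.8 CPM in ablated keratocytes. Its groups overlapped, and its log2 fold change of -0.39 ± 0.21 did not pass (edgeR adjusted p = 0.318). Itga2, the collagen receptor chain of epithelia and platelets, was near the floor in controls with 0, 3 and 16 counts, against 39, 98 and 46 in ablated libraries. Those groups did not overlap, but the fitted log2 fold change of 3.13 had an SE of 1.33 and did not pass (edgeR adjusted p = 0.202). Itga10, the remaining chain of the class, stayed at or under 3.05 CPM in every library. Of the 4 collagen-binding chains tested, 1 passed, and it was lower.

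Chains that read the RGD motif of fibronectin and related proteins gave 1 call among 4 tested. Itga8 (Entrez 241226), which pairs with the Itgb1 chain and binds nephronectin, fibronectin and tenascin-C, had 76, 37 and 36 counts in the control libraries and 234, 431 and 306 in the ablated libraries. These corresponded to 3.49, 1.95 and 1.58 CPM against 9.97, 18.3 and 12.3 CPM. The lowest ablated library exceeded the highest control library. The means were 2.34 ± 1.01 and 13.5 ± 4.30 CPM (SD, n = 3 each), a 5.78-fold difference (log2 fold change 2.53 ± 0.47, edgeR adjusted p = 0.00487), and it was 1.80 on the scale of log2(TPM + 1), on which low values are compressed. Itga8 was thus high relative to its controls yet remained a low-level gene, at 5.63 ± 2.06 TPM (transcripts per 1000000) in ablated keratocytes. Itga5, the main fibronectin receptor chain, had 28.4, 64.7 and 62.4 CPM in controls and 81.0, 80.6 and 75.9 CPM in ablated libraries. The ablated values lay above the controls, with control replicate 1 far below the other controls, and the log2 fold change of 0.61 ± 0.27 did not pass (edgeR adjusted p = 0.222). Itgav, which joins several beta chains including those of Itgb5 and Itgb8, had 77.8 ± 5.81 CPM in controls and 68.9 ± 7.90 CPM in ablated keratocytes (log2 fold change -0.18 ± 0.17, edgeR adjusted p = 0.634). Itga2b, the platelet chain, had 4.68, 3.63 and 1.36 CPM in controls and 4.26, 10.1 and 6.36 CPM in ablated libraries, which overlapped (log2 fold change 1.10 ± 0.60, edgeR adjusted p = 0.346).

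Itga4 (Entrez 16401), the chain that binds VCAM-1 and an alternatively spliced segment of fibronectin, was lower. Its values were 74.9, 49.7 and 55.0 CPM in the control libraries and 14.0, 25.6 and 21.9 CPM in the ablated libraries. Each ablated library lay below the lowest control library. The log2 fold change was -1.54 ± 0.27 (edgeR adjusted p = 0.00307). The expected counts of Itga4 were not whole numbers in any of the 6 libraries, as RSEM gives where it divides reads between genes, and its exons overlap those of Cerkl on the opposite strand. Itga9, its closest relative, ranged from 5.87 to 11.2 CPM in controls and from 6.48 to 8.28 CPM in ablated keratocytes and did not pass. On the TPM scale the ratio of Itga5 to Itga4, the chains of the main fibronectin receptors, was 0.840, 2.92 and 2.47 in the control libraries and 12.8, 7.13 and 7.32 in the ablated libraries.

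None of the 3 laminin-binding chains passed edgeR's test or DESeq2, and 1 of them, Itga6, had an unadjusted p under 0.05 in edgeR. Itga3 had 70.4 ± 2.69 CPM in controls and 85.4 ± 14.8 CPM in ablated keratocytes (log2 fold change 0.28 ± 0.18, edgeR adjusted p = 0.431). Itga6, the partner of the Itgb4 chain in hemidesmosomes, had 31.5, 40.5 and 37.4 CPM in controls and 46.9, 54.4 and 47.3 CPM in ablated libraries. Its groups did not overlap, yet the log2 fold change of 0.44 ± 0.20 did not pass (edgeR adjusted p = 0.233). Itga7, a chain of muscle and mural cells, had a log2 fold change of 0.48 ± 0.27 (edgeR adjusted p = 0.369).

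Among the beta chains, Itgb1, the shared partner of most matrix-binding alpha chains, had 327, 343 and 416 CPM in controls and 295, 284 and 334 CPM in ablated keratocytes. The groups overlapped, with a log2 fold change of -0.25 ± 0.14 (edgeR adjusted p = 0.353). Itgb1 remained the most abundant integrin beta gene per unit length in both groups, at 182 ± 28.2 TPM in controls and 177 ± 8.49 TPM in ablated keratocytes. Itgb5 (Entrez 16419), whose chain pairs with the Itgav chain to bind vitronectin, had 150.05, 114 and 113 CPM in controls and 90.4, 55.1 and 73.1 CPM in ablated libraries. All ablated values were under all control values (log2 fold change -0.79 ± 0.21, edgeR adjusted p = 0.0342). This call was lost with library totals as the only scaling, in both fits to TPM, and when any library other than ablated replicate 1 was left out (log2 fold change -0.62 to -0.86). Itgb8 (Entrez 320910), whose chain pairs with the Itgav chain to bind latent TGF-beta, was higher, with 13.4, 12.4 and 18.9 CPM in controls and 29.1, 35.7 and 36.0 CPM in ablated libraries. The ablated libraries all lay above the controls (log2 fold change 1.17 ± 0.26, edgeR adjusted p = 0.0139), and the call was lost when ablated replicate 2 (1.13), ablated replicate 3 (1.11) or control replicate 2 (1.06) was left out. The ratio of Itgb5 to Itgb8 in TPM was 39.4, 30.3 and 15.5 in controls and 8.98, 4.65 and 5.94 in ablated keratocytes. The chains of Itgb5 and Itgb8, both partners of the Itgav chain, thus changed in opposite directions at the RNA level while Itgav did not pass.

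Itgb4 (Entrez 192897), the laminin-binding beta chain of hemidesmosomes, had 38.4, 31.6 and 27.1 CPM in control libraries and 61.6, 60.2 and 55.4 CPM in ablated libraries. The groups were separate, with a log2 fold change of 0.87 ± 0.20 (edgeR adjusted p = 0.019), but Itgb4 no longer passed when any library other than control replicate 1 was left out (0.76 to 0.91). Corneal epithelium also carries this chain. The summed level of 9 epithelial marker genes outside the members was 42.1 to 68.8 CPM in controls and 2.46 to 5.20 CPM in ablated libraries. Of the 7 epithelial markers tested, which included the members Itgb4 and Cdh1, Itgb4 and Krt12 were higher and Krt5, Krt14 and Krt15 lower (background 4.68% and 3.8%). Krt12, the keratin of differentiated corneal epithelium, had 0 counts in each control library and 21, 49 and 52 in the ablated libraries. Only the ablated libraries gave Krt12 enough counts to be tested, so it could pass only as higher. Krt5, Krt14 and Krt15 were tested through their control libraries, so they could pass only as lower. Their ablated counts were 17, 0 and 0 for Krt5, 19, 1 and 0 for Krt14, and 22, 0 and 0 for Krt15. In controls the epithelial sum came mostly from Krt15, Krt14 and Krt5 (means of 35.5, 9.09 and 8.44 CPM). The part of epithelial cells in the Itgb4 difference was not tested. Vascular and Schwann cells also carry the Itgb4 chain, and the summed vascular markers were higher in ablated libraries (906 to 1125 CPM in controls, 1319 to 1428 CPM in ablated), whereas the summed Schwann cell markers were 654 to 670.5 CPM in controls and 526 to 605 CPM in ablated libraries. A sum follows its most abundant genes, and the median log2 fold change over the tested genes of a list was 1.15 for vascular and 0.43 for Schwann cell markers. The part of these cells in the Itgb4 difference was not tested.

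Itgb3, another partner of the Itgav chain, lay between 17.7 and 25.6 CPM in controls and between 15.8 and 18.4 CPM in ablated keratocytes and did not pass. Itgb7, a lymphocyte chain, had 10.7, 12.3 and 17.5 CPM in controls and 30.7, 8.58 and 22.1 CPM in ablated libraries, a spread within the ablated group that covered the controls (log2 fold change 0.60 ± 0.42, edgeR adjusted p = 0.479).

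**Figure D2:**
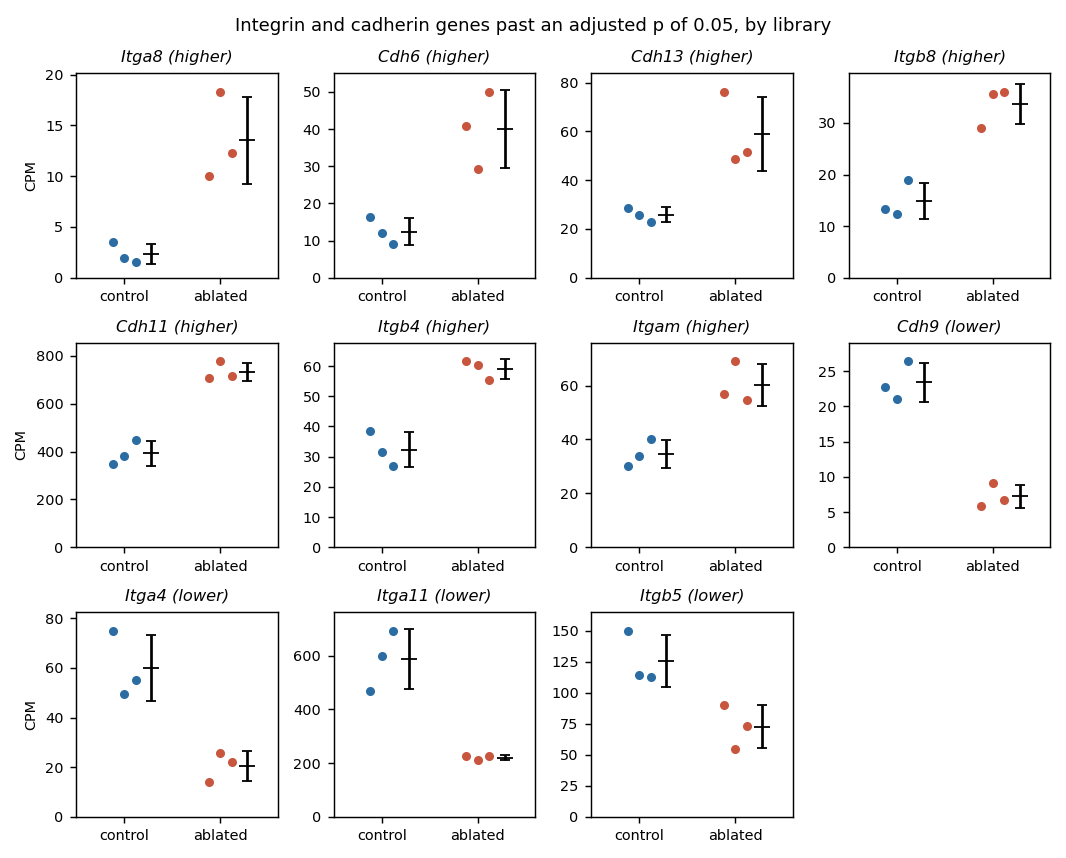
CPM of the 11 members that passed, 1 panel each, with a point for every library and a bar at the group mean with 1 SD (n = 3). In each panel the 3 ablated points lie wholly above or wholly below the 3 control points, as for Itga11 (469 to 693 CPM in controls, 211 to 226 CPM in ablated keratocytes).

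Leukocyte integrins were present at low to moderate level. Itgam (Entrez 16409), the alpha chain of the complement receptor of myeloid cells, had 30.0, 34.0 and 40.3 CPM in control libraries and 57.0, 69.0 and 54.5 CPM in ablated libraries. The groups were separate (log2 fold change 0.79 ± 0.20, edgeR adjusted p = 0.0316). The call was lost, however, when any library other than control replicate 3 was left out (0.69 to 0.85). It was also lost with a replicate block (0.79, edgeR adjusted p = 0.0626). Exons of Itgam overlap those of an annotated gene on the same strand, Gm49368. Itgb2, the only known partner chain of Itgam, had 32.8, 21.9 and 46.0 CPM in controls and 42.1, 24.2 and 37.9 CPM in ablated libraries. These overlapped (log2 fold change 0.05 ± 0.30, edgeR adjusted p = 0.961), and the ratio of Itgb2 to Itgam in TPM was 1.62 ± 0.466 in controls and 1.00 ± 0.357 in ablated keratocytes. The summed level of 14 leukocyte markers outside the members was 1243 to 1315 CPM in controls and 1221 to 1470.1 CPM in ablated libraries. Of the 17 leukocyte markers tested only Itgam and Laptm5 passed, both higher, beside 4.68% of all genes tested. This list also held the members Itgam, Itgal, Itgax and Itgb2, so Laptm5 was the only marker outside the members that passed. Itgal and Itgax, whose chains also pair with the Itgb2 chain, lay between 3.36 and 10.4 CPM in every library. Itgae, the chain that lets lymphocytes bind E-cadherin, had 0, 0 and 77 counts in controls and 195, 5 and 176 in ablated libraries. Control replicate 3 alone set the control mean, and ablated replicates 1 and 3 set the ablated mean (log2 fold change 2.197 ± 1.62, edgeR adjusted p = 0.508), and without control replicate 3 it passed against controls at 0 (edgeR adjusted p = 0.0305).

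Per unit length, the alpha chain messages were redistributed more than their sum. Summed TPM of the 18 alpha genes was 354, 426 and 479 in the control libraries and 346, 373 and 312 in the ablated libraries, which overlapped. Within that sum Itga11 held 55.2%, 58.9% and 62.6% in controls and 31.5%, 29.0% and 33.8% in ablated keratocytes. The shares of Itga5 (5.78% to 12.8%), Itga3 (7.34% to 12.4%) and Itgam (3.72% to 9.10%) were larger in ablated than in control means. A share rises wherever Itga11 falls, so these shares are not separate results. Beta chain sums overlapped as well, at 349 ± 34.3 TPM in controls and 338 ± 27.8 TPM in ablated keratocytes, with Itgb1 at 52.2% ± 4.63 and 52.7% ± 5.15. Itga11 had 1.36 ± 0.135 times the TPM of Itgb1 in controls and 0.609 ± 0.0390 times in ablated keratocytes. On the TPM scale the median gene was itself 0.19 higher in log2 in ablated keratocytes, which touches every TPM sum but not a ratio within a library.

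**Figure D3:**
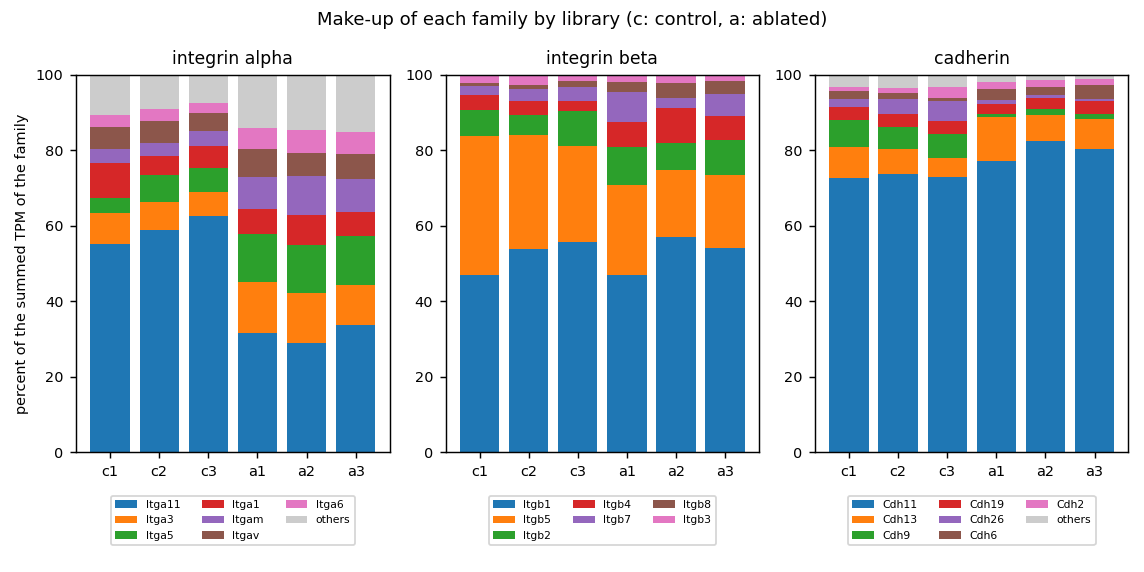
Share of each gene in the summed TPM of its family (percent, y axis) in each of the 6 libraries (x axis), for integrin alpha genes, integrin beta genes and cadherin genes. Itga11 holds 55.2% to 62.6% of the alpha sum in controls and 29.0% to 33.8% in ablated libraries, whereas Itgb1 holds 46.9% to 56.9% of the beta sum in every library.

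The cadherins were dominated by Cdh11 (Entrez 12552), the type II cadherin of mesenchymal cells. Cdh11 had 346, 383 and 449.7 CPM in the control libraries and 706, 777 and 716 CPM in the ablated libraries. Every ablated library exceeded every control library, with group means of 393 ± 52.4 CPM in controls and 733 ± 38.5 CPM in ablated keratocytes (SD). The log2 fold change was 0.90 ± 0.13 (edgeR adjusted p = 0.000888). Cdh11 alone held 73.0% ± 0.537 of the summed cadherin TPM in controls and 80.0% ± 2.63 in ablated keratocytes. Accordingly the cadherin sum moved with it, from 192, 209.7 and 258 TPM in control libraries to 426, 470.1 and 403 TPM in ablated libraries. These sums did not overlap, and a permutation test of 3 against 3 libraries cannot give a two-sided p below 0.1.

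Cdh6 and Cdh9 are type II cadherins whose genes are neighbours in gene order on mouse chromosome 15. No other protein-coding gene lies between them in the RefSeq annotation, but their promoter positions, given below, are far apart. Cdh6 and Cdh9 changed in opposite directions. Cdh6 (Entrez 12563), a cadherin of developing kidney and mesenchyme, had 16.3, 11.9 and 8.97 CPM in controls and 40.7, 29.2 and 50.04 CPM in ablated libraries. Cdh9 (Entrez 12565), best known from the nervous system and kidney, had 22.8, 21.0 and 26.4 CPM in controls and 5.84, 9.09 and 6.72 CPM in ablated libraries. Cdh9 was the higher of the neighbours by CPM in every control library and Cdh6 in every ablated library. The log2 fold changes were 1.69 ± 0.30 for Cdh6 (edgeR adjusted p = 0.00368) and -1.70 ± 0.31 for Cdh9 (edgeR adjusted p = 0.00408). In TPM, which corrects for length, the ratio of Cdh6 to Cdh9 was 0.282, 0.238 and 0.140 in controls and 2.89, 1.37 and 3.08 in ablated keratocytes. Cdh10, the gene on the other side of Cdh9, stayed at or under 3.11 CPM in every library. Exons of Cdh9 overlap an annotated gene on the opposite strand, Gm49127, and strand use in the counting is not given in the sources used here.

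The promoters of Cdh6 and Cdh9 are shown because these genes, adjacent in gene order, changed in opposite directions. Those of Itga8 and Itga11 are shown because these had the largest rise and the smallest p among the members that passed. Sequences run from 250 bases before to 50 bases after the annotated start (RefSeq, GRCm38.p6). Capitals mark matches, on either strand, to any of 4 motifs. The GC box was searched as GGGCGG. The binding motif of the trimeric factor NF-Y, called the CCAAT box, was searched by those letters. The motif of the TATA-binding protein was searched as TATAAA, and that of the Gli factors as GACCACCCA. Positions are chr15:13173626-13173925 (minus strand) for Cdh6, chr15:16728665-16728964 (plus strand) for Cdh9, chr2:12301895-12302194 (minus strand) for Itga8 and chr9:62677605-62677904 (plus strand) for Itga11.
Cdh6: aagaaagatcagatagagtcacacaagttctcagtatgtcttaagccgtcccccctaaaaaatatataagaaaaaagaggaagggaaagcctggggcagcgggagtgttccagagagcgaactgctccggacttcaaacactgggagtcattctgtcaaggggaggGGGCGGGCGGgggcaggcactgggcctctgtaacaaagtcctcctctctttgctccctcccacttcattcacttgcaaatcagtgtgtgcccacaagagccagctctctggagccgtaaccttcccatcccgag
Cdh9: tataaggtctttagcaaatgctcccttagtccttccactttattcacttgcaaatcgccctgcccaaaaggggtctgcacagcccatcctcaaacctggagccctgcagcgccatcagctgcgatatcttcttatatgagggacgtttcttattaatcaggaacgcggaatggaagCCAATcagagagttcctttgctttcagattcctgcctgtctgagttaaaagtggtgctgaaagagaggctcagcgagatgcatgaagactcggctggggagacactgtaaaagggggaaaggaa
Itga8: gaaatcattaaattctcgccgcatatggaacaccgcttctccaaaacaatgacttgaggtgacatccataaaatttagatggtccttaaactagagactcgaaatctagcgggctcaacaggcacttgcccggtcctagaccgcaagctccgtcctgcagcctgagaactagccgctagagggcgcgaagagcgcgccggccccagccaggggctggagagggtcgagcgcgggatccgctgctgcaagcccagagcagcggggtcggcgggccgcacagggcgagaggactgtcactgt
Itga11: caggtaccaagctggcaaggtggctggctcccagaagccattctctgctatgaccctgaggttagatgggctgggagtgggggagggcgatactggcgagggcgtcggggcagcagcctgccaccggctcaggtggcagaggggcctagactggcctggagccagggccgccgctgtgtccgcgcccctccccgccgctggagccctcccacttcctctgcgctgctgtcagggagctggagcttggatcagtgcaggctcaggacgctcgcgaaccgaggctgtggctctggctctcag
The GC box occurred in the Cdh6 window, as a pair of overlapping matches, and the CCAAT box in the Cdh9 window, whereas the windows of Itga8 and Itga11 held none of the 4 motifs. Of the 11 members that passed, 8 had a promoter in the table. The GC box was in 4 of these 8 (Cdh6, Itga4, Itgam and Itgb5) and in 35.66% of all 32851 promoters of the same length. The CCAAT box was in 2 of the 8 (Cdh9 and Itgb8) and in 37.41% of all promoters. The Gli consensus was in 0 of the 8 and in 0.2527% of all promoters, and the TATA box in 0 of the 8 and in 13.62%. The windows differed in base composition: GC content was 59% for Itga8, 53% for Cdh6, 48.67% for Cdh9 and 68% for Itga11, beside a median of 52.67% over all promoters. CpG dinucleotides numbered 23, 8, 8 and 16 in the same order, beside a median of 7.

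Of the remaining cadherins, Cdh13 (Entrez 12554), the lipid-anchored cadherin that binds adiponectin, was higher. It had 28.8, 25.9 and 22.8 CPM in control libraries and 76.3, 48.6 and 51.7 CPM in ablated libraries. The groups were separate, ablated replicate 1 being the highest library (log2 fold change 1.19 ± 0.23, edgeR adjusted p = 0.00664). Per unit length Cdh13 was at 14.3 ± 1.52 TPM in controls, next to Cdh9 at 14.3 ± 2.004 TPM, and at 37.7 ± 9.51 TPM in ablated keratocytes, where only Cdh11 of the cadherins was higher. Vascular endothelium and mural cells can carry Cdh13, and their summed markers were also higher in ablated libraries (mural: 1029 to 1204 CPM in controls, 1596 to 1627 CPM in ablated). The ratio of each ablated library to the control mean was 2.95, 1.88 and 2.004 for Cdh13, and 1.39, 1.29 and 1.37 for the summed vascular and 1.43, 1.43 and 1.40 for the summed mural markers. Single markers of these lists differed among themselves. Of the 12 vascular markers 7 passed as higher and 5 did not pass, and of the 10 mural markers 5 passed as higher and 5 did not pass (background 4.68%). The median log2 fold change was 1.15 over the vascular and 0.85 over the mural markers. The most abundant gene of each list did not pass. These were Kdr (553 ± 87.3 CPM in controls, 420.4 ± 15.7 CPM in ablated) and Pdgfrb (686 ± 101 CPM in controls, 738 ± 45.1 CPM in ablated). Vwf, from the vascular list, had a log2 fold change of 1.85 ± 0.15 and Acta2, from the mural list, of 1.40 ± 0.16 (edgeR adjusted p = 1.03e-05 and 0.000147). The paper counts Acta2 among its fibroblast markers for these keratocytes, so Acta2 does not mark mural cells alone here. The part of vascular and mural cells in the Cdh13 difference was not tested.

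None of the 4 type I cadherins passed edgeR's test or DESeq2, and 0 of the 4 had an unadjusted p under 0.05 in edgeR. Cdh2, the N-cadherin gene of mesenchyme and corneal endothelium, had 5.28, 7.42 and 16.7 CPM in controls and 16.5, 20.2 and 13.5 CPM in ablated libraries, and did not pass (edgeR adjusted p = 0.346). Cdh1, the E-cadherin gene of epithelia, had 5, 0 and 31 counts in controls and 111, 0 and 43 in ablated libraries. Both groups included a library at 0, and the fitted log2 fold change of 2.01 had an SE of 1.68 (edgeR adjusted p = 0.572). Cdh3, the P-cadherin gene, had 7.16 to 7.36 CPM in controls and 3.74 to 5.67 CPM in ablated keratocytes, without overlap but without passing (edgeR adjusted p = 0.438). Cdh4, the R-cadherin gene, had 117, 99 and 20 counts in controls and 4, 59 and 36 in ablated libraries (log2 fold change -1.47 ± 1.02, edgeR adjusted p = 0.477).

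Cdh19, a Schwann cell cadherin, had 15.4, 19.2 and 21.2 CPM in controls and 21.0, 24.6 and 29.8 CPM in ablated libraries (log2 fold change 0.43 ± 0.26, edgeR adjusted p = 0.394). Cdh26 had 5.64, 11.2 and 17.0 CPM in controls and 5.67, 4.89 and 2.74 CPM in ablated libraries. Control replicate 1 lay within the ablated range, and the log2 fold change of -1.35 ± 0.49 did not pass (edgeR adjusted p = 0.132). Without that library it was -1.67 and passed (edgeR adjusted p = 0.043). Cdh23 and Cdh24 stayed at or under 2.46 CPM throughout. The 6 members not tested were Cdh7, Cdh16, Cdh17, Cdh18, Cdh20 and Itgad, each at or under 0.90 CPM in every library. Across all 37 tested members, 16 had groups that did not overlap (11 higher and 5 lower in ablated keratocytes), or 43.2% beside 27.4% of all genes tested.

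**Figure D4:**
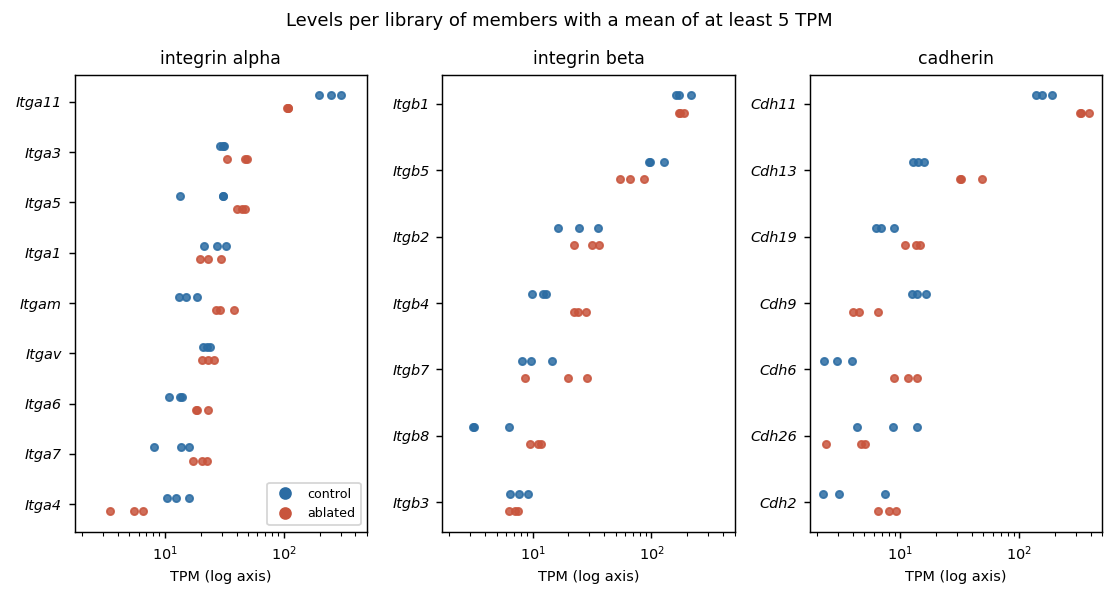
TPM of the members with a mean of at least 5 TPM (log axis), with a point for every control and ablated library. Itga11, Itgb1, Cdh11 and Itgb5 are the most abundant members in both groups, with mean TPM of 249, 182, 160 and 107 in controls and 108, 177, 347 and 69.0 in ablated keratocytes.

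Genes that act beside the receptors were taken from lists. The median log2 fold change was 0.29 over 36 tested cytoplasmic linkers and signaling proteins of integrin adhesions. Of these, 7 passed, each of them higher, beside 4.68% of all genes tested. Those with at least a 2-fold change were Flna, Nedd9 and Vasp. Flna encodes filamin A, an actin cross-linker that binds beta chain tails, and had 407, 568 and 583 CPM in controls and 1461, 1292 and 1132 CPM in ablated libraries (log2 fold change 1.32 ± 0.16, edgeR adjusted p = 0.000178). Vasp, an actin polymerase cofactor of focal adhesions, had 15.9, 16.1 and 15.5 CPM in controls and 31.9, 32.9 and 33.6 CPM in ablated libraries. Nedd9, a docking protein of focal adhesions, had a log2 fold change of 1.13 ± 0.29 (edgeR adjusted p = 0.0293). The rest of the 7 were Actn4, Tns3, Vcl and Zyx, below a 2-fold change.

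Of 7 tested catenins, which hold cadherin tails, Ctnnd1 and Ctnnd2 passed, both higher, beside 4.68% of all genes tested. Ctnnd1, which encodes p120-catenin, had 94.5, 115 and 112 CPM in controls and 159, 181 and 141 CPM in ablated libraries (log2 fold change 0.58 ± 0.16, edgeR adjusted p = 0.0422). Ctnnd2, a neuronal relative, had 0, 0 and 1 count in controls and 38, 82 and 31 in ablated libraries. Only the ablated libraries gave Ctnnd2 enough counts to be tested, so it could pass only as higher. Its place beside the share of all genes tested is therefore not informative. Ctnnb1, which encodes beta-catenin and was named after its value was seen, had a log2 fold change of 0.45 ± 0.17 and did not pass (edgeR adjusted p = 0.151).

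Ligands of integrins other than collagens went both ways, with 7 of 27 tested higher and 7 lower (median log2 fold change 0.37). The shares over all genes tested were 4.68% higher and 3.8% lower. Tnc, which encodes tenascin-C, had 0.597, 2.31 and 2.15 CPM in controls and 15.6, 23.5 and 19.0 CPM in ablated libraries (log2 fold change 3.52 ± 0.50, edgeR adjusted p = 0.000766). Spp1, the osteopontin gene, Lama4, Ccn1 and Ccn2 were also at least 2-fold higher, with log2 fold changes from 1.06 to 2.12. Fn1, the fibronectin gene, was lower, at 968, 1227 and 1329 CPM in controls and 461, 526 and 518 CPM in ablated keratocytes (log2 fold change -1.23 ± 0.14, edgeR adjusted p = 0.000115). Lama1, a laminin chain of basement membranes, was lower too (log2 fold change -1.57 ± 0.27, edgeR adjusted p = 0.00309). Vcam1, a ligand of the Itga4 chain that was named after its value was seen, was lower along with Itga4 (log2 fold change -0.66 ± 0.12, edgeR adjusted p = 0.00505), and Npnt, a ligand of the Itga8 chain named likewise, had 10.1 ± 5.18 CPM in controls and 18.3 ± 3.23 CPM in ablated keratocytes without passing (edgeR adjusted p = 0.265).

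Close names outside the rule included Itgbl1, an integrin beta-like gene with no transmembrane chain, at 183, 197 and 239.8 CPM in controls and 1219, 1254 and 1509 CPM in ablated libraries (log2 fold change 2.68 ± 0.15, edgeR adjusted p = 5e-07). Cdh5, the vascular cadherin left out by the rule, had 7.48, 12.1 and 12.1 CPM in controls and 28.3, 31.5 and 25.3 CPM in ablated libraries (log2 fold change 1.43 ± 0.28, edgeR adjusted p = 0.00785).

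The cell identity of the libraries was read from marker lists. Summed keratocyte markers reached 136475 to 157635 CPM in controls and 81818 to 93804 CPM in ablated libraries, far above every other list in both groups, and 6 of 8 tested keratocyte markers were lower. Of the vascular endothelium markers 7 of 12 tested passed, and of the mural cell markers 5 of 10, each of them higher. Of the corneal endothelium markers 3 of 8 tested passed, each of them higher (median log2 fold change 0.88). Of these 3, Car3 was tested through its ablated libraries and could pass only as higher. Among 9 tested Schwann cell markers 2 were higher and 1 lower, and among 5 tested melanocyte markers 1 was higher. Over all genes tested, 4.68% passed as higher and 3.8% as lower. No listed marker present in the table was at 0 in every library, and 11 of the 13 listed epithelial markers were in the table. The part of these cell types in the member differences was not tested.

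**Figure D5:**
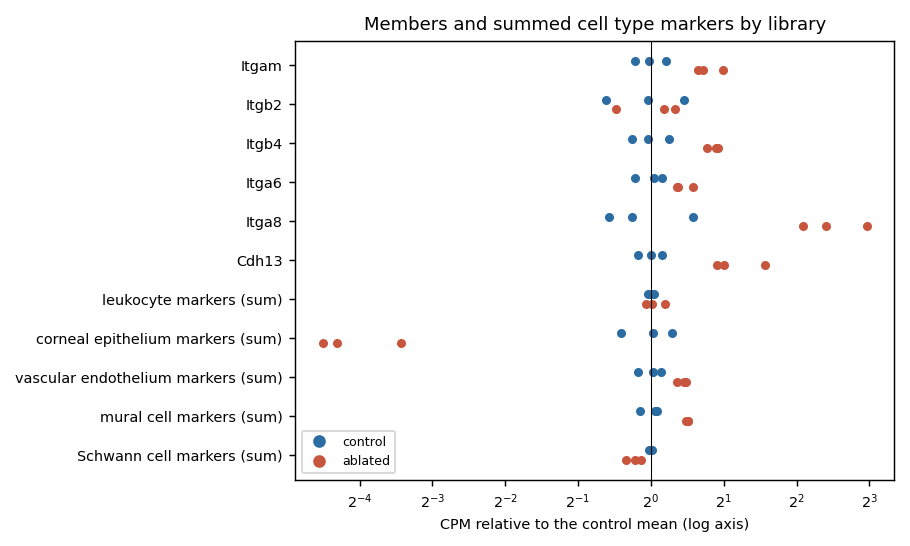
Ratio of each library to the control mean (log axis) for selected members and for the summed markers of other cell types. Itga8 lies at 4.27 to 7.84 in ablated libraries and Cdh13 at 1.88 to 2.95, the summed vascular markers at 1.29 to 1.39 (median log2 fold change of single genes 1.15), the summed leukocyte markers at 0.954 to 1.15 (median -0.031), and the summed epithelial markers at 0.0440 to 0.0929.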

How the data were processed

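RNA was measured in keratocytes sorted from the corneas of 3 control and 3 Ptch1-ablated mouse samples, grouped and numbered by the sample titles. The deposited table, made by the authors, holds RSEM expected counts per gene (not normalized), TPM, in which values are divided by effective length and each library has an equal total, and FPKM, which was not used. The submitters' processing notes name Bowtie2 2.2.5, RSEM 1.2.12 and the build mm9. The annotation and strand use are not given in the sources used here. The labels name an Illumina TruSeq kit and the study's methods ribosomal depletion and a BGISEQ instrument. Which applied was not settled, and the choice affects which transcripts are counted.

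Expected counts were rounded to whole numbers (18.6% of values were not whole within 0.005). Genes were filtered with filterByExpr, scaled by TMM and tested with edgeR's quasi-likelihood test (edgeR 4.0.16, limma 3.58.1, R 4.3.3), two-sided, with Benjamini-Hochberg adjustment over 13888 genes. A gene passed at an adjusted p of at most 0.05. Standard errors were computed from the fold change and F statistic. The steps were tested on simulated counts. All members that passed were named, as were tested members with a mean TPM of at least 10 or a fitted fold of at least 2. The others were given by range. Genes of other lists were to be named where they passed with a fold of at least 2. Npnt, Vcam1, Ctnnb1, Ctnnd1, Krt12, Krt5, Krt14, Krt15, Laptm5, Kdr, Pdgfrb, Actn4, Tns3, Vcl, Zyx, Ptch1 and Gli1 were named after their values were seen. Members, lists and roles were chosen with earlier results of these data known. Alternatives were other scalings and filters, DESeq2 1.42.0, limma on log2(TPM + 1) and log2(TPM + 0.1), a replicate block and leaving out libraries. All 43 members matched RefSeq by Entrez ID, and 26 had a promoter entry. Exon overlaps came from GENCODE M21. RefSeq and GENCODE coordinates are of GRCm38, not of the build of the counts. Itgb6, Cdh8, Cdh12, Cdh15 and Cdh22 were not analysed here.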

Additional observations from a re-analysis of the deposited data

How the results depend on the processing

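Cdh11, Cdh13, Cdh6, Itga8, Cdh9, Itga11 and Itga4 kept their direction and stayed past the threshold under all 17 alternatives. Leaving out 1 library at a time gave 4 to 7 higher members, 3 to 4 lower members and 6 to 9 members past 2-fold. The count of 4 higher members came from leaving out the second control library, ablated replicate 2 or ablated replicate 3. In these fits 778, 866 and 795 of all genes passed, also fewer than with all libraries. Itgam was lost under 7 alternatives (log2 fold change 0.58 to 1.00 over all, adjusted p 0.00409 to 0.164), Itgb4 under 5 (0.76 to 1.09, 0.00111 to 0.0757), Itgb5 under 9 (-0.97 to -0.48, 0.00254 to 0.197) and Itgb8 under 4 (1.05 to 1.41, 0.000841 to 0.0695), by edgeR, limma or DESeq2 according to the setting. Cdh26 passed without control replicate 1 (-1.67, edgeR adjusted p = 0.043) and Itgae without control replicate 3 (9.87, edgeR adjusted p = 0.0305), whose controls are then all at 0. Itgav turned to 0.037 and 0.038 in limma on TPM with pseudocounts of 1 and 0.1. Itgb2, at 0.35 at most without control replicate 3, turned to -0.18 without control replicate 2, to -0.11 without ablated replicate 1 and to -0.023 without ablated replicate 3. Their causes were not tested. The replicate numbers did not pair the libraries: deviations of same-numbered libraries correlated at -0.022, -0.063 and 0.039. With a replicate block, 6 members were higher, 4 lower and 7 past 2-fold, Itgam being lost (0.79, edgeR adjusted p = 0.0626), and over all genes 942 passed instead of 1178. Leaving out control replicate 1 and ablated replicate 2 together, chosen after seeing the data, gave 5 higher, 3 lower and 6 past 2-fold. The median of all genes shifted by 0.17 with library totals only and by 0.19 and 0.22 in limma on TPM. The split over all genes was then 7.37% higher and 2.78% lower, 8.5% and 3.18%, and 7.5% and 2.79%. Members were at 7 higher and 3 lower in each of these. DESeq2 called 1736 genes, and the same 7 and 4 members. Members under about 5 CPM have wide errors at this depth.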
